A study of Mus musculus with 12 samples.

Results

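The Notch pathway was followed through 10 genes in tongue epithelium from which Langerhans cells, the resident dendritic cells of surface epithelia, had been removed. The genes were chosen by symbol: the receptors Notch1, Notch2 and Notch3, the ligands Jag1, Jag2 and Dll1, the DNA-binding factor Rbpj and the targets Hes1, Hey1 and Heyl. They are 10 of the 49164 genes with counts, and all 10 were among the 14231 abundant enough to test. Expression was measured by RNA sequencing in 12 samples of tongue epithelium from Langerin-DTR mice, in which cells that make langerin carry the diphtheria toxin receptor. In 6 samples the mice had received diphtheria toxin (DT), which kills such cells, and in 6 phosphate-buffered saline (PBS). Injections were given 2 times per week in both groups, beginning at 2 weeks of age and lasting until the mice were adult. All mice carried the transgene, so the toxin itself and the loss of the cells cannot be told apart. The labels do not say for each sample that it is a single mouse; if the samples are not separate mice, the p-values measure only the spread between these samples.

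Notch signalling passes between cells in contact. A ligand on the surface of a cell binds a Notch receptor on its neighbour, proteases of the ADAM family and the gamma-secretase complex cut the receptor, and the freed intracellular domain joins RBPJ and Mastermind-like coactivators at target genes. In stratified epithelia the pathway is known for promoting the switch of keratinocytes from the basal layer to differentiation, with HES and HEY repressors among its direct targets.

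Total counts per sample were 26181070 to 34333949 in DT and 21226436 to 30282813 in PBS, and 3 counts in a sample corresponded to 0.0813 to 0.143 CPM, the count scaled to the size of its library. The depletion was seen in Cd207, which encodes langerin, with 0 to 2 counts in each DT sample and 53 to 92 in each PBS sample. Of 8 Langerhans cell markers 2, Cd207 and Mfge8, were lower by edgeR and by DESeq2. With Csf1r, at -0.32 on the log2 scale, 3 had an edgeR unadjusted p under 0.05. H2-Ab1 and Cd74 stood at -0.13 and -0.08 without passing. H2-Aa, H2-Eb1 and Ptprc stood at 0.03, 0.01 and 0.28 without passing. Other immune cells also make some of the 8 markers, lower and not lower ones, and their part in these values was not tested. The sum of the 8 was 188 to 299 CPM in DT and 204 to 311 CPM in PBS. Keratins marked the tissue as labelled: the basal Krt5 averaged 3310 CPM in DT and 3409 CPM in PBS, and the tongue keratin Krt13 56428 CPM in DT and 64306 CPM in PBS. The summed level of 8 basal markers was 9342 to 11359 CPM in DT and 9950 to 11692 CPM in PBS, with 0 of 8 past the test by edgeR, 1 by DESeq2 and 1 at an unadjusted p under 0.05. That of 8 markers of differentiated tongue keratinocytes was 122599 to 156682 CPM in DT and 150143 to 185167 CPM in PBS, and 2 of the 8, Krt78 and Rptn, were lower by edgeR, 3 by DESeq2 and 4 at an unadjusted p under 0.05, with fold changes of -0.48 to -0.14 on the log2 scale over the 8. Vessel cells also use Notch. Of 8 endothelial markers 2 were abundant enough to test, Pecam1 at a log2 fold change of -0.67 and Tie1 at -1.07; 0 of them passed by edgeR, 1, Tie1, passed as lower by DESeq2 and 2 had an unadjusted p under 0.05. The sum of the 8 was 4.66 to 6.98 CPM in DT and 4.64 to 11.8 CPM in PBS. It was 9.89 to 11.8 CPM in PBS 1 to 4, and 6.00 and 4.64 CPM in PBS 5 and PBS 6. Cdh5 had 13 counts in all DT samples and 8 in all PBS samples. Pericyte and smooth muscle markers summed to 37.0 to 48.8 CPM in DT and 36.0 to 46.6 CPM in PBS. Most of it was Cspg4, at 36.2 CPM in DT and 37.4 CPM in PBS. Of these 8 markers 3 were abundant enough to test, Cspg4 at a log2 fold change of -0.05, Acta2 at 0.44 and Des at -0.88. By edgeR and by DESeq2 0 of them passed, and 0 had an edgeR unadjusted p under 0.05. Among those too low to test, Pdgfrb had 4 counts in DT and 13 in PBS, and Myh11 17 in DT and 8 in PBS.

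Of the 10 genes 1 passed the test. Jag2 rose in DT, with a log2 fold change of 0.25, and the other 9 genes did not pass by edgeR's quasi-likelihood test at an adjusted p of 0.05. Among all tested genes 1.3% passed in either direction and 0.443% passed as higher in DT. Fold changes of all 10 genes were positive, between 0.02 and 0.45 with a median of 0.15, where 51.6% of all tested genes were positive and their median was 0.01. The 10 were also positive by DESeq2 and under each of the 3 other scalings of the libraries. Of these, library size alone made 78.5% of all tested genes positive. Notch2, Notch3 and Rbpj were negative under other settings, given with the processing. All these fits share the same samples. The 10 genes were chosen with earlier results of these data known, so the count of signs is a description. The CPM ranges of the groups did not overlap for Jag2 and Notch1; this was so for 2.21% of all tested genes. By DESeq2 3 of the 10 passed, Jag2, Notch1 and Dll1, all higher in DT, where 3.8% of all genes with an adjusted p passed. At an edgeR p under 0.05 before adjustment stood 4 of the 10, Jag2, Dll1, Notch1 and Hey1, and 15.4% of all tested genes. In bulk tissue a change in the share of cells that make a gene and a change in RNA per cell cannot be told apart.

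**Figure D1:**
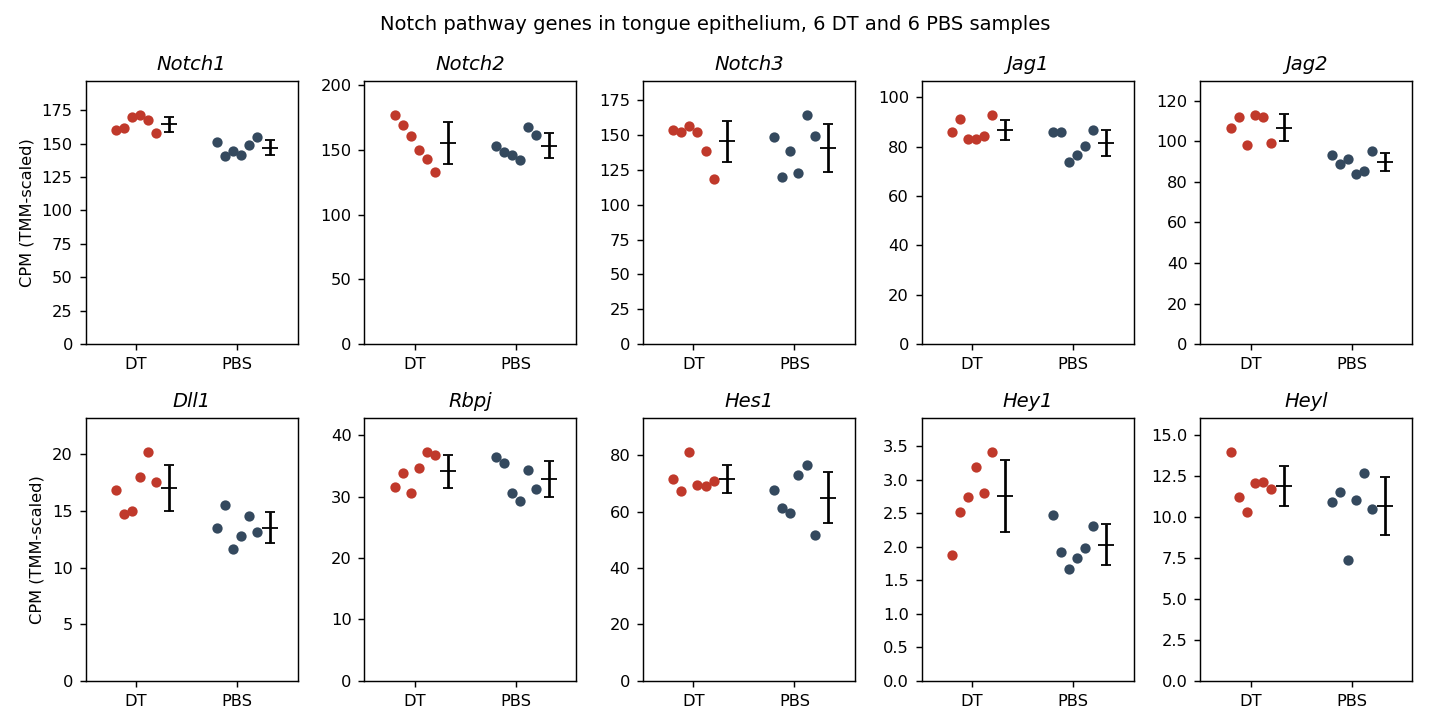
Level of each of the 10 Notch pathway genes in CPM on TMM-scaled libraries (vertical axes, from 0) in 6 DT samples (red, left) and 6 PBS samples (dark blue, right), with mean and SD in black. Points run from replicate 1 to 6 within a group. For Jag2 and Notch1 each DT sample lies above each PBS sample.

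Among the ligands, Jag2, a Jagged-family transmembrane protein, had 98.1 CPM in the lowest, 109 in the median and 113 in the highest DT sample, against 83.7, 90.1 and 94.996 CPM in PBS. All 6 DT samples lay above all 6 PBS samples. The mean was 107 ± 6.64 CPM in DT and 89.6 ± 4.45 CPM in PBS (SD, n = 6 each), a log2 fold change of 0.25 ± 0.05 (SE; 95% interval 0.14 to 0.37; edgeR adjusted p = 0.0348). The sign and size held when any sample was left out (0.24 to 0.28), but the call did not: it was lost without PBS 1, PBS 2, PBS 3, PBS 4, PBS 5, DT 2, DT 4 or DT 5, with adjusted p of 0.0523 to 0.0958. The part that differentiated keratinocytes, of whose 8 markers 2 were lower in DT, had in this result was not tested.

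The bases before the start of transcription of Jag2, the member that passed, are shown with those of Notch1, the other gene whose groups did not overlap, and of Rbpj, whose protein binds the core motif TGGGAA. They are the 250 bases upstream of the annotated start in RefSeq on GRCm38.p6, which is not the build of the counts, written 5′ to 3′ on the gene's strand, with capitals for TGGGAA and for the N box CACNAG, a motif bound by HES repressors, in either orientation.
Jag2 (chr12:112929496-112929745, minus strand): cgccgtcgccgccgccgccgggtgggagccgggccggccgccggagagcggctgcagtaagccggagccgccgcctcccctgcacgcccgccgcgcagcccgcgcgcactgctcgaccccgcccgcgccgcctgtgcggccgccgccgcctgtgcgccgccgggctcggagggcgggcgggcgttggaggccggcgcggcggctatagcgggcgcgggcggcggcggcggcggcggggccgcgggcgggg
Notch1 (chr2:26503823-26504072, minus strand): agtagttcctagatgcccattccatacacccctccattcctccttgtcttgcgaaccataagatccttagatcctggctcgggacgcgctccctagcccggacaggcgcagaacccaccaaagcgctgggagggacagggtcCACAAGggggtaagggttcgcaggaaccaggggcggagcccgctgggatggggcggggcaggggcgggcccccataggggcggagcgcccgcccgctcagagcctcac
Rbpj (chr5:53590096-53590345, plus strand, the first of its annotated starts): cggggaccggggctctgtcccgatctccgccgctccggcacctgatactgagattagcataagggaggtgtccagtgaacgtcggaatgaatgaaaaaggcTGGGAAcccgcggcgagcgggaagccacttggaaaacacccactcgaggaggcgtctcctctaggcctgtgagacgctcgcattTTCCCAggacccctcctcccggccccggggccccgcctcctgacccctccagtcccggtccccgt
The Jag2 stretch held 0 matches to either motif and was 87.2% G or C, where the median over all RefSeq promoters was 52.4%. The Notch1 stretch held 1 N box match and 0 of TGGGAA. That of Rbpj held 2 matches to TGGGAA and 0 N boxes, and that of its other annotated start held 1 match to TGGGAA. The stretches of Notch2, Notch3, Jag1 and Dll1, which are not printed, held 0 matches to TGGGAA. The motifs did not overlap each other in these stretches. Over all 32851 promoters of this length, 21.6% held TGGGAA and 36.7% held CACNAG, and a match is a description of the letters only. Of the 10 genes 7 had a promoter in the RefSeq table; Hes1, Hey1 and Heyl were not among them.

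Dll1, a Delta-family ligand, had 14.8 CPM in the lowest, 17.2 in the median and 20.2 in the highest DT sample, against 11.7, 13.3 and 15.5 CPM in PBS. DT 2 and DT 3 lay within the PBS range and the other 4 DT samples above it. The mean was 17.1 ± 2.03 CPM in DT and 13.5 ± 1.359 CPM in PBS, a log2 fold change of 0.34 ± 0.09 (SE; 95% interval 0.16 to 0.52), which did not pass by edgeR (adjusted p = 0.0661). Its calls under other settings are given with the processing. Jag1, the other Jagged ligand, had 83.1, 85.2 and 92.7 CPM in the lowest, median and highest DT samples, against 74.0, 83.0 and 86.7 CPM in PBS. The groups overlapped, and its fold change of 0.09 did not pass (95% interval -0.03 to 0.21; edgeR adjusted p = 0.466).

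The ratio of the Jagged ligands within a sample does not depend on how libraries are scaled. The log2 ratio of Jag1 to Jag2 counts was -0.30 ± 0.12 in DT and -0.14 ± 0.09 in PBS (SD, n = 6 each), a difference of -0.16. DT 6 at -0.10 lay among the PBS samples and PBS 3 at -0.30 among the DT samples. The two-sided exact permutation p was 0.0390, or 0.107 after Benjamini-Hochberg adjustment over the 3 ratios examined, which does not pass; 0.00216 was the smallest p this design allows.

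**Figure D2:**
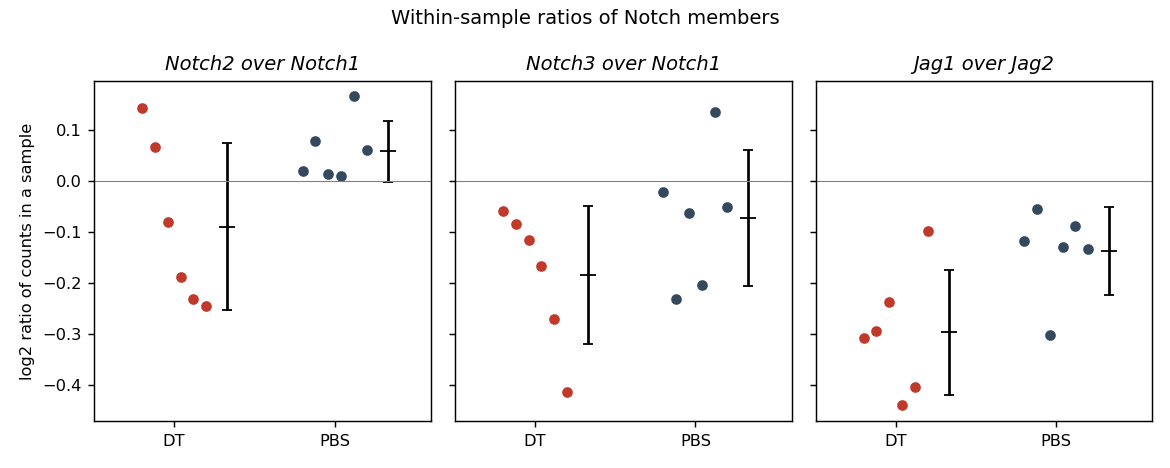
Log2 ratio of raw counts of a pair of Notch pathway genes within each sample (vertical axis) for 6 DT samples (red, left) and 6 PBS samples (dark blue, right), with mean and SD in black and 0 as equal counts. Mean ratios differ by -0.16 to -0.11 between DT and PBS, and the groups overlap in each of the 3 panels.

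Among the receptors, Notch1, the main Notch receptor of keratinocytes, had 158 CPM in the lowest, 164 in the median and 171 in the highest DT sample, against 141, 147 and 155 CPM in PBS. All 6 DT samples lay above all 6 PBS samples, by a narrow margin. The mean was 165 ± 5.58 CPM in DT and 147 ± 5.70 CPM in PBS, a log2 fold change of 0.16 ± 0.05 (SE; 95% interval 0.06 to 0.26). It did not pass by edgeR (adjusted p = 0.0973) and passed by DESeq2 (adjusted p = 0.0129). Notch1 had the smallest spread between samples of the 3 receptors.

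Notch2 differed little in its mean, at 155 ± 16.4 CPM in DT and 153 ± 9.70 CPM in PBS (log2 fold change 0.02; 95% interval -0.13 to 0.17; edgeR adjusted p = 0.925). It had 133, 155 and 177 CPM in the lowest, median and highest DT samples, and 142, 151 and 168 CPM in PBS, so that DT samples lay on either side of the PBS range. Notch3, which is also known from vessel walls, had 118, 152 and 157 CPM in the lowest, median and highest DT samples, against 120, 144 and 164 CPM in PBS. Its fold change of 0.05 did not pass (95% interval -0.13 to 0.23; edgeR adjusted p = 0.844). The log2 ratio of Notch2 to Notch1 counts was -0.09 ± 0.16 in DT and 0.06 ± 0.06 in PBS, a difference of -0.15 (two-sided exact permutation p = 0.0714, adjusted p = 0.107). That of Notch3 to Notch1 was -0.18 ± 0.14 in DT and -0.07 ± 0.13 in PBS, a difference of -0.11 (exact permutation p = 0.184, adjusted p = 0.184). Neither passed.

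The spread of Notch2 followed an axis that crossed the groups. The first principal component of log2 CPM over all tested genes, with 26.6% of the variance, set DT 1, DT 2, DT 3, PBS 5 and PBS 6 apart from the other 7 samples. Notch2 stood at 161 to 177 CPM in these 5 samples and at 133 to 153 CPM in the other 7, with no overlap. It was the only one of the 10 genes without overlap between these sets, a description, because all 10 entered the component. The share of all tested genes that separate these sets was not counted, so the separation is not shown to be particular to Notch2. Notch3 ranged from 149 to 164 CPM in the 5 samples and from 118 to 153 CPM in the other 7.

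**Figure D3:**
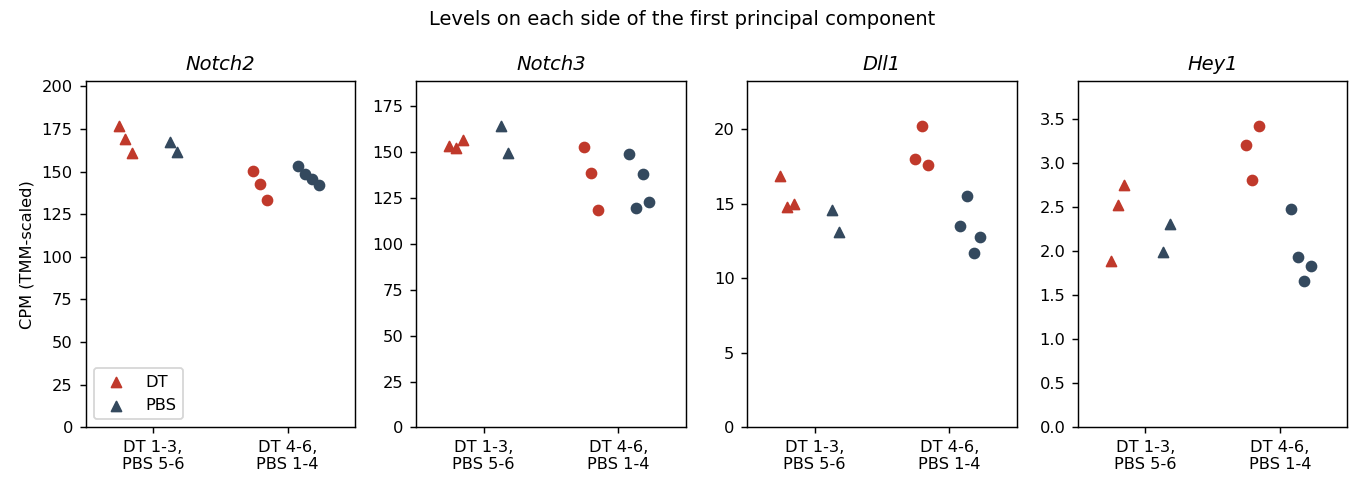
Levels in CPM (vertical axes, from 0) of Notch2, Notch3, Dll1 and Hey1 on each side of the first principal component: DT 1 to 3 with PBS 5 and 6 (triangles) and DT 4 to 6 with PBS 1 to 4 (circles); DT is red and left of PBS, dark blue, on each side. Notch2 separates the sides at 161 CPM and above against 153 CPM and below, and Dll1 and Hey1 stand highest in DT 4 to 6.

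DT against PBS was also compared within each set, with 3 DT and 2 PBS samples in the first and 3 DT and 4 PBS samples in the second. The sets were cut by a component of these same data, so the p-values within them are a description. In the second set total counts were 31152694 to 34333949 in DT and 21226436 to 28026237 in PBS. TMM scaling factors there were 1.076 to 1.088 in DT and 0.976 to 0.992 in PBS. In the first set they were 0.971 to 1.026 in DT and 0.894 to 0.975 in PBS. Summed markers of differentiated tongue keratinocytes stood at 122599 to 129436 CPM in DT and 150143 to 158654 CPM in PBS of the second set. In the first set they stood at 138254 to 156682 CPM in DT and 159146 to 185167 CPM in PBS. The parts of depth, scaling and these cells in the fold changes were not tested. Jag2 had a log2 fold change of 0.23 (edgeR adjusted p = 0.240) in the first set and 0.27 (adjusted p = 0.0221) in the second. Dll1 had 0.17 (edgeR adjusted p = 0.454) in the first set and 0.48 (adjusted p = 0.00828) in the second. Hey1 had 0.15 (edgeR adjusted p = 0.784) in the first set and 0.68 (adjusted p = 0.0235) in the second. The other 7 genes did not pass in either set, with fold changes of -0.03 to 0.19 in the first, where Notch3 and Rbpj were negative, and of -0.05 to 0.23 in the second, where Notch2 was negative. Over all tested genes 0.0206% passed in the first set and 7.75% in the second. Whether these fold changes differed between the sets was not tested.

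Rbpj, which binds DNA and turns from repressor to activator when the Notch fragment joins it, had 30.5, 34.3 and 37.2 CPM in the lowest, median and highest DT samples, against 29.3, 32.8 and 36.4 CPM in PBS. The groups overlapped over most of their range. The mean was 34.1 ± 2.69 CPM in DT and 32.9 ± 2.91 CPM in PBS (log2 fold change 0.05; 95% interval -0.09 to 0.20; edgeR adjusted p = 0.770).

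Of the target genes 0 of 3 passed by edgeR or by DESeq2, and 1, Hey1, had an unadjusted p under 0.05. Hes1, a basic helix-loop-helix repressor, had 67.1 CPM in the lowest, 70.1 in the median and 81.1 in the highest DT sample, against 51.8, 64.4 and 76.6 CPM in PBS. The PBS samples spread wider, and 1 DT sample, DT 3, lay above all of them. Its mean was 71.5 ± 4.93 CPM in DT and 65.0 ± 9.18 CPM in PBS (log2 fold change 0.14; 95% interval -0.04 to 0.32; edgeR adjusted p = 0.462). Hey1, a related repressor, was the least abundant member, with 44 to 126 counts per sample. It had 1.88, 2.78 and 3.41 CPM in the lowest, median and highest DT samples, against 1.66, 1.96 and 2.47 CPM in PBS. DT 1 lay within the PBS range and the other 5 DT samples above it. The log2 fold change of Hey1 was 0.45 ± 0.15 (SE; 95% interval 0.14 to 0.77), the largest estimate among the 10 genes, and did not pass by edgeR (adjusted p = 0.148); it passed without DT 1 (0.54, adjusted p = 0.0493). Heyl, another such repressor, had 10.3, 11.9 and 13.9 CPM in the lowest, median and highest DT samples, against 7.37, 10.9 and 12.7 CPM in PBS. The groups overlapped, and its fold change of 0.16 did not pass (95% interval -0.07 to 0.39; edgeR adjusted p = 0.521).

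Levels were set beside each other per length, as CPM per kilobase of the exons annotated for each gene. Hes1 stood highest, at 35.1 ± 2.42 CPM per kilobase in DT and 31.9 ± 4.51 in PBS (SD, n = 6 each). Notch3 followed with 17.97 ± 1.80 CPM per kilobase in DT and 17.4 ± 2.12 in PBS, and Hes1 and Notch3 did not overlap in either group. Jag2, Jag1 and Notch2 came next, at means of 15.3, 14.9 and 14.4 CPM per kilobase in DT and 12.9, 14.0 and 14.2 in PBS. From Notch3 through these 3 genes, neighbours in the order overlapped, and Jag2 held place 3 in DT and place 5 in PBS. Notch1 was at 11.6 ± 0.39 CPM per kilobase in DT and 10.3 ± 0.40 in PBS, below each of them without overlap to its neighbour. Dll1 at 4.05 in DT and 3.21 in PBS, Rbpj at 2.68 in DT and 2.58 in PBS and Heyl at 2.32 in DT and 2.08 in PBS were lower; Rbpj overlapped Heyl in both groups and Dll1 in PBS. Hey1 stood last, at 0.846 CPM per kilobase in DT and 0.622 in PBS. The length counts all annotated exons, 12750 bases for Rbpj and 14232 for Notch1, and so understates genes with many rarely used exons.

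**Figure D4:**
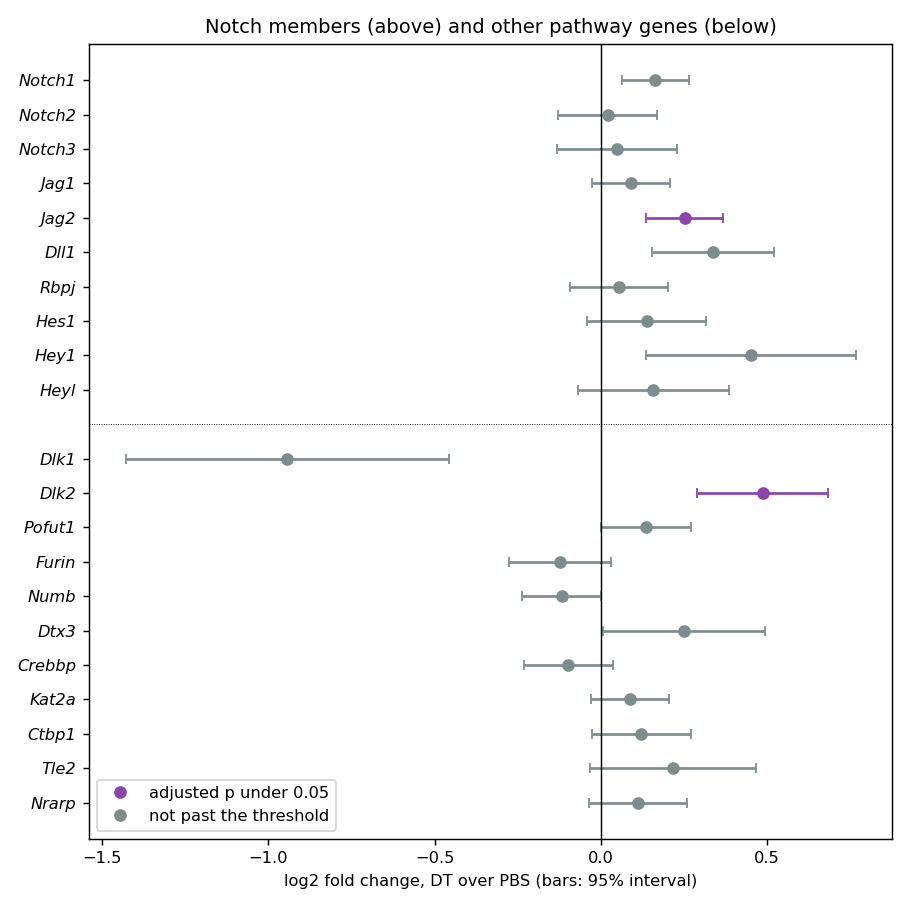
Log2 fold change of DT over PBS with 95% interval (horizontal axis) for the 10 Notch pathway genes, above the dotted line, and 11 other genes of the pathway, below it; purple marks an adjusted p under 0.05 by edgeR. All 10 estimates above the line are positive and Jag2 is purple; below it Dlk2 is purple at 0.49, and Dlk1 lies farthest from 0 at -0.94 with an adjusted p of 0.0542.

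The wider pathway was covered by 59 further genes, of which 49 were abundant enough to test. Of these 1 passed, Dlk2, higher in DT, against 1.3% of all tested genes. Fold changes were positive for 24 and negative for 25 of the 49, with a median of -0.00398; with libraries scaled by size alone 44 were positive. Dlk2 encodes a membrane protein related to the Delta ligands but without their receptor-binding DSL domain. It had 9.21, 10.997 and 12.1 CPM in the lowest, median and highest DT samples, against 6.53, 7.62 and 9.18 CPM in PBS. All 6 DT samples lay above all 6 PBS samples, the closest pair being DT 6 and PBS 1. The log2 fold change of Dlk2 was 0.49 ± 0.09 (SE; 95% interval 0.29 to 0.68; edgeR adjusted p = 0.0207), and the call was lost without DT 5 (0.45, adjusted p = 0.0600). Dlk2 overlaps an exon of Abcc10 on the other strand by 51 bases in the GRCm38 annotation, and Abcc10 had 2407 counts over the 12 samples against 3227 of Dlk2. Its relative Dlk1, named after its values were seen, had 2.70, 4.51 and 6.69 CPM in the lowest, median and highest DT samples, against 4.74, 9.37 and 14.5 CPM in PBS. The groups overlapped through PBS 6, and the log2 fold change of -0.94 ± 0.23 (SE; 95% interval -1.43 to -0.46) did not pass by edgeR (adjusted p = 0.0542). Without PBS 6 it passed (adjusted p = 0.0240). Fibroblast and skeletal muscle markers also had lower estimates in DT, to unlike degrees, as did the tested endothelial markers Pecam1 at -0.67 and Tie1 at -1.07. The tested pericyte and smooth muscle markers went both ways, with Des at -0.88, Cspg4 at -0.05 and Acta2 at 0.44. Of 6 tested fibroblast markers 0 passed by edgeR and 1 passed by DESeq2. Col1a1 at -0.93 and Col3a1 at -0.89 were the 2 with an edgeR unadjusted p under 0.05, and Dcn and Pi16 stood at -0.03 each. The sum of all 8 fibroblast markers, most of it Dcn, was 264 to 332 CPM in DT and 256 to 339 CPM in PBS. The 8 skeletal muscle markers had fold changes of -1.52 to -0.30, with 0 past the test by edgeR or DESeq2 and 1, Myh1, at an unadjusted p under 0.05, and summed to 9.28 to 42.3 CPM in DT and 6.92 to 90.9 CPM in PBS. The part of any of these cell types in the difference of Dlk1 was not tested.

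By role, none of the other groups held a gene that passed by edgeR or DESeq2. Among sugar-transferring enzymes that modify the receptors, with 4 tested, Pofut1, which adds fucose, stood at 0.14 (edgeR unadjusted p = 0.0466, adjusted p = 0.315). Furin, which cuts the receptor precursor, stood at -0.12 (edgeR adjusted p = 0.450) and had the smallest p of 3 proteases, the others being Adam10 and Adam17. The fold changes of 6 tested gamma-secretase genes ran from -0.09 to 0.08. In the group of 12 genes for endocytosis and turnover, the Deltex gene Dtx3 stood at 0.25 (edgeR unadjusted p = 0.0440, adjusted p = 0.308) and Numb, an inhibitor of Notch, at -0.12 (adjusted p = 0.337). Among 8 coactivators the acetyltransferase genes Kat2a and Crebbp stood at 0.09 and -0.10 (edgeR adjusted p = 0.483 and 0.501). Among 13 corepressors Tle2 and Ctbp1 stood at 0.22 and 0.12 (edgeR adjusted p = 0.396 and 0.430). Nrarp, a target that feeds back on the Notch complex, was the tested gene among 4 further targets, at 125 ± 8.41 CPM in DT and 116 ± 11.99 CPM in PBS (log2 fold change 0.11; 95% interval -0.04 to 0.26; edgeR adjusted p = 0.476).

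Genes whose levels were most like those of 3 members were sought among the 12358 other tested genes that averaged 1 CPM or more, by Pearson's r of log2 CPM over the 12 samples, which share depth, preparation and the group difference. For Notch1 they included C1qtnf12 (r = 0.952) and Cds2 (r = 0.933). For Hes1 they were Bbc3 (r = 0.928), Pdrg1 (r = 0.890) and Hint2 (r = 0.844). For Jag1 they were E2f6 (r = 0.866), Dhodh (r = 0.862) and Adcy3 (r = 0.848). They were picked as the highest of all values searched and are a description.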

How the data were processed

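For every sample the authors deposited a column of raw counts and a column of normalized values. The submitters' processing notes name cutadapt (2.10), TopHat2 (2.1.1), HTSeq (2.01), DESeq2 (1.36.0) and build GRCm39; neither annotation nor strand setting is given in the sources used here. Per the labels' protocols, the kit was stranded. Counts as deposited are whole reads per gene without scaling. The normalized values that the authors deposited are a signal (each count over its sample's size factor) and were not used. Rows with blank counts, 6250 of 55414, were left out.

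Groups came from sample titles. The counts went into edgeR 4.0.16 (R 4.3.3): filterByExpr (minimum count 10), TMM scaling, and the quasi-likelihood test (two-sided) of DT against PBS with no covariate, Benjamini-Hochberg adjusted over all 14231 tested genes, threshold 0.05. SE came from the fold change and F statistic. DESeq2 1.42.0 was an alternative, as were other scalings, no filter, a replicate block, a term for the principal component and leaving out each sample. Replicate numbers are not stated to pair mice, so samples were not treated as pairs. Examined afterwards, same-numbered samples did not deviate together (correlations -0.33 to 0.11). The fit was tested on simulated counts with known changes. It recovered 67.0% of genes with a true log2 change of 0.5 in size and 94.9% of those with 1. Smaller changes, such as the estimates of the 10 members, were not simulated. Floors of 3 counts cover counting error only.

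The 10 members, the wider list and the markers were chosen with earlier results of these data known. Named genes were all members, each gene of the wider list that passed and otherwise the 1 with the smallest p per role, or 2 in roles with over 6 tested genes; 2 genes that the rules picked are not reported here. Exon lengths came from GENCODE M21 (GRCm38) by gene ID, found for all 10 members. Genes overlap Notch1, Notch2, Notch3, Jag2, Dll1 and Rbpj in that annotation; those with counts used here had 0 to 257 over all samples, and A930024N18Rik, opposite Dll1, and microRNA genes within Notch1 and Jag2 were not analysed here.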

Additional observations from a re-analysis of the deposited data

Results flagged for a closer look

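In 2 of 32 groups of 6 values examined, a single sample lay far from the nearest other, and chance alone sets apart about 5% of such groups. Hes1 in DT 3 stood at 81.1 CPM, against 67.1 to 71.4 CPM in the other 5 DT samples; the gap was 69.2% of the range of the group. The log2 ratio of Jag1 to Jag2 in PBS 3 was -0.30, against -0.13 to -0.05 in the other 5 PBS samples, a gap of 68.5% of the range.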

How the results depend on the processing

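Of the 10 fold changes under 9 other settings, 86 of 90 were positive; the exceptions were Notch2 at -0.0161 with a term for the side of the first principal component and at -0.0529 within DT 4 to 6 and PBS 1 to 4, and Notch3 at -0.0221 and Rbpj at -0.0314 within DT 1 to 3 and PBS 5 and 6. Leaving out 1 sample, 118 of 120 were positive, and Notch2 ran from -0.0141 to 0.0619. The count of members that passed was 1, and 3 with DESeq2 (Notch1, Jag2 and Dll1), 3 with library size alone, 3 with the component term and 3 within DT 4 to 6 and PBS 1 to 4 (Jag2, Dll1 and Hey1). It was 2 with upper quartile scaling and 2 without the filter (Jag2 and Dll1 in both), 0 within DT 1 to 3 and PBS 5 and 6, and 0 to 2 when 1 sample was left out. For other pathway genes the count of 1 became 2 with DESeq2, without the filter and with the component term (Dlk1 and Dlk2), 4 within DT 4 to 6 and PBS 1 to 4, 0 within the other set and 0 to 2 when 1 sample was left out. Over all genes 185 (1.3%) passed by edgeR, 567 (3.8%) with DESeq2, 553 (3.89%) with library size alone and 1017 (7.15%) with the component term. With upper quartile scaling 169 (1.19%) passed and without the filter 224 (0.744%). Within the sets 3 (0.0206%) and 1120 (7.75%) passed, and 46 to 263 (0.322% to 1.84%) when 1 sample was left out. Of the calls 34.1% were higher in DT, a share of 47.9% under upper quartile scaling and of 87.5% when libraries were not scaled beyond their size. The last setting moved the median of all genes to 0.11, and relative to it Jag2 stood at 0.25, Dll1 at 0.34 and Notch1 at 0.16. The difference in the Jag1 to Jag2 ratio was -0.20 to -0.13 when 1 sample was left out, and it passed without PBS 3 or DT 6 (exact permutation, adjusted p = 0.0455 and 0.0260, against 0.107 with all samples), each of which lay among the values of the other group; those of Notch2 and Notch3 to Notch1 did not pass in any such test. With the replicate number as a block, 8 genes passed in all, 0 of the members and 0 of the other pathway genes, with Jag2 at 0.25 (edgeR adjusted p = 0.216) and Dlk2 at 0.49 (adjusted p = 0.102); the samples share only a number, with correlations of -0.33 to 0.11 between same-numbered samples, and 0 of 6 DT samples was most like the PBS sample of its number. The blocked differences in ratio were -0.16, -0.15 and -0.11 for Jag1 to Jag2, Notch2 to Notch1 and Notch3 to Notch1. The cause of these changes was not tested. Hey1 rests on the fewest counts, 44 in its lowest samples; whether depth or the spread between samples limits it was not tested.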

Other observations

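Of the 59 further pathway genes 10 were too low for the filter. Dll4, a ligand known from vessel tips, had 7 counts in all DT samples and 6 in all PBS samples, and Notch4, the endothelial receptor, had 34 in DT and 26 in PBS. Among targets, Hes5 had 0 counts in DT and 1 in PBS, Hey2 had 2 in DT and 3 in PBS, and Hes7 had 48 in DT and 34 in PBS. The divergent ligand Dll3 had 29 counts in DT and 9 in PBS, with 1 to 12 counts in each DT sample and 0 to 3 in each PBS sample; it did not pass by edgeR without the filter (log2 fold change 1.33, unadjusted p = 0.0274, adjusted p = 0.422), and by DESeq2 it stood at 1.38 (unadjusted p = 0.0589) with no adjusted p. Mfng, a fringe enzyme, had 26 counts in each group.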
